A study of Homo sapiens with 9 samples.

Results

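The 38 genes described here encode proteins that choose splice sites and the kinases that act on them. They were taken by name: 11 SR proteins (SRSF1 and SRSF3 to SRSF12), 2 TRA2 proteins (TRA2A and TRA2B), 16 hnRNP proteins, 3 PTB proteins (PTBP1, PTBP2 and PTBP3), 4 CLK kinases (CLK1 to CLK4) and 2 SRPK kinases (SRPK1 and SRPK2). SRSF2, the SR protein edited in the study, was kept apart. All 38 symbols matched 1 gene ID each among the 63677 IDs counted, and 36 passed the filter on low counts. SRSF12 had 3 counts in all (2 in W19 and 1 in W36) and was not tested. The gene ID that GENCODE 29 pairs with SRSF8 had 0 counts in all 9 libraries, but that ID comes from a later annotation than the one used for counting, so the 0 is not a measure of SRSF8, whose level is not analysed here.

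RNA was measured in K562, an erythroleukaemia line that was derived from a chronic myeloid leukaemia. Clones made by CRISPR carried either the P95H substitution in SRSF2 (P9, P15, P22 and P38) or wild-type SRSF2 (W19, W33, W36 and W42), and the unedited parental line had wild-type SRSF2 too. Each of these 9 cultures gave 1 library of polyadenylated RNA. The labels name no further treatment and say neither how many SRSF2 alleles were edited nor whether the clones were edited separately, and every p-value therefore reflects differences among these cultures, which may not be independent edits.

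SR proteins bind short exonic sequences with RNA recognition motifs and recruit the spliceosome through tails rich in arginine and serine. SRPK kinases phosphorylate those tails in the cytoplasm, which lets SR proteins enter the nucleus, and CLK kinases phosphorylate them further in the nucleus. Many hnRNP and PTB proteins bind introns or exons and favour skipping, so exon choice depends on the balance of the families. Many SR and hnRNP genes also limit their own level through exons that send the transcript to nonsense-mediated decay. P95H changes which exonic sequences SRSF2 prefers and recurs in myeloid neoplasms.

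The edited site is shown to place the study: coding bases 253 to 315 of SRSF2 on chromosome 17 in the GENCODE 29 reference (GRCh38), 5′ to 3′, with codon 95 in capitals. Counts per gene do not separate the alleles.
SRSF2 reference: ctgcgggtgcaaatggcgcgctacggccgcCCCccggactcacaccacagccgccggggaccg

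Reads counted in genes came to 24546255 to 35477328 per library. CPM here means the reads of a gene relative to its library's TMM-scaled total. In bulk RNA, fewer cells with a transcript and less of it per cell cannot be told apart. A floor of 3 counts came to 0.0865 to 0.133 CPM, which covers counting error only. All 10 markers of K562, among them GATA1 and the fetal globins, reached 1 CPM in every library, and their summed level spanned 3043 to 7521 CPM in P95H clones, 3409 to 5596 CPM in WT clones and 4065 CPM in the parental line. Of 16 markers of other cells, 11 stayed under 1 CPM in every library, and their sum spanned 41.7 to 180.2 CPM in P95H clones, 63.8 to 219 CPM in WT clones and 117 CPM in the parental line. Most of it was PTPRC, except in P22 and W33. PTPRC stood between 112.5 and 149 CPM in P9, P15 and P38 but at 0.179 CPM in P22. In W19, W36 and W42 it stood between 106 and 193 CPM, but at 23.1 CPM in W33. LYZ spanned 9.80 to 38.4 CPM over the 9 libraries and CD3E 0.216 to 1.42 CPM, while COL1A1 reached 10.3 CPM in W33, and the part of these levels in the results was not tested. W33 stood apart from the other WT clones. SRSF2 had 444, 456, 518 and 578 CPM in P9, P15, P22 and P38, against 499, 448, 507 and 502 CPM in W19, W33, W36 and W42, and 514 CPM in the parental line. The log2 difference between P95H and WT clones was 0.04 (SE 0.11, edgeR adjusted p = 0.917), and its sign turned without W33 (-0.0072) or without P38 (-0.038). The exons of SRSF2 overlap MFSD11 on the other strand.

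Per kilobase of merged exons, HNRNPA2B1 had the highest level when each gene was counted by its own row. It binds nascent transcripts and RNA on its way to the cytoplasm. Its level was 197 ± 9.59 CPM per kb in P95H clones and 212 ± 4.24 CPM per kb in WT clones (SD, n = 4 each). HNRNPAB followed with 167 ± 4.93 CPM per kb in P95H clones and 173 ± 21.7 CPM per kb in WT clones. HNRNPF (158 ± 7.27 CPM per kb in P95H clones and 151 ± 8.70 in WT clones) and SRSF1 (143 ± 12.7 in P95H clones and 149 ± 9.01 in WT clones) came next. Of the 35 pairs of neighbours in the order, 21 in P95H clones and 25 in WT clones differed by less than the larger SD of the pair, and the pairs HNRNPAB with HNRNPF and HNRNPF with SRSF1 did so in WT clones but not in P95H clones. HNRNPA2B1 also led when levels were divided by the longest coding transcript, where HNRNPAB ranked 5. The order uses the reads of a gene's own row alone, without those of its near-identical copies. With copies added, HNRNPA1 had 2038 ± 163 CPM in P95H clones and 2029 ± 118 CPM in WT clones. HNRNPA2B1 had 1822 ± 88.8 and 1965 ± 39.3 CPM in the same groups. Its merged exons are longer (9267 bases, against 5093 for HNRNPA1), so its lead per kilobase of merged exons holds for own rows only. CLK1, CLK3 and CLK4 were scarce: CLK4 had 2.64 ± 0.0654 CPM per kb in P95H clones and 2.13 ± 0.296 CPM per kb in WT clones. CLK2 was higher, with 16.9 ± 1.15 CPM per kb in P95H clones and 17.9 ± 0.909 in WT clones. That was near HNRNPA0 (20.8 ± 0.905 and 18.5 ± 1.43 CPM per kb). PTBP2, the PTB protein best known from neurons, had 1.86 ± 0.378 CPM per kb in P95H clones and 2.27 ± 0.474 CPM per kb in WT clones, against 67.5 ± 3.55 and 66.4 ± 5.44 CPM per kb for the widely expressed PTBP1 in the same 2 groups. The order of the 36 measured members was nearly the same in both groups of clones (Spearman rho 0.993 over 36 genes, a description across genes that share these libraries).

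The comparison of P95H with WT clones asks whether these genes differ in level where SRSF2 is mutated. None of the 36 passed an adjusted p of 0.05 in edgeR's quasi-likelihood test, in which 0 of 18173 genes did (0.0%), and none passed in DESeq2 or limma-voom, which called 270 genes (0.789% of those with a test) and 59 genes (0.325%). At an unadjusted p under 0.05 edgeR listed 3 of 36 members (8.33%), against 11.7% of all genes tested. Of these, SRSF6 and CLK4 were higher in P95H clones, where 6.07% of genes were listed, and HNRNPC was lower, where 5.65% were. The median log2 difference was -0.02 over the 36 members and 0.01 over all genes, with 15 members higher and 21 lower, where 52.1% and 47.9% of genes were. Differences were small: 25 of 36 members (69.4%) lay within 0.1 log2 of zero, against 28.2% of all genes and 36.4% of 8245 genes of like level. These are the genes whose mean CPM lay between the lowest and the highest member (18.9 to 1893 CPM). They were not matched to members within that span, and the part of level in the contrast was not tested. The lowest was HNRNPC at -0.31 and the highest CLK4 at 0.32. Without W33 the sign turned in 9 members, none past 0.13 log2 in size on either side: SRSF7, SRSF10, HNRNPAB, HNRNPD, HNRNPH2, HNRNPL, HNRNPR, PTBP1 and SRPK1. The counts were then 14 higher and 22 lower, with a median of -0.03, and 23 within 0.1 log2 of zero. At an unadjusted p under 0.05, 4 members were listed without W33 (HNRNPA0, HNRNPC, PTBP2 and SRSF6), against 12.8% of genes, and CLK4 was not.

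**Figure D1:**
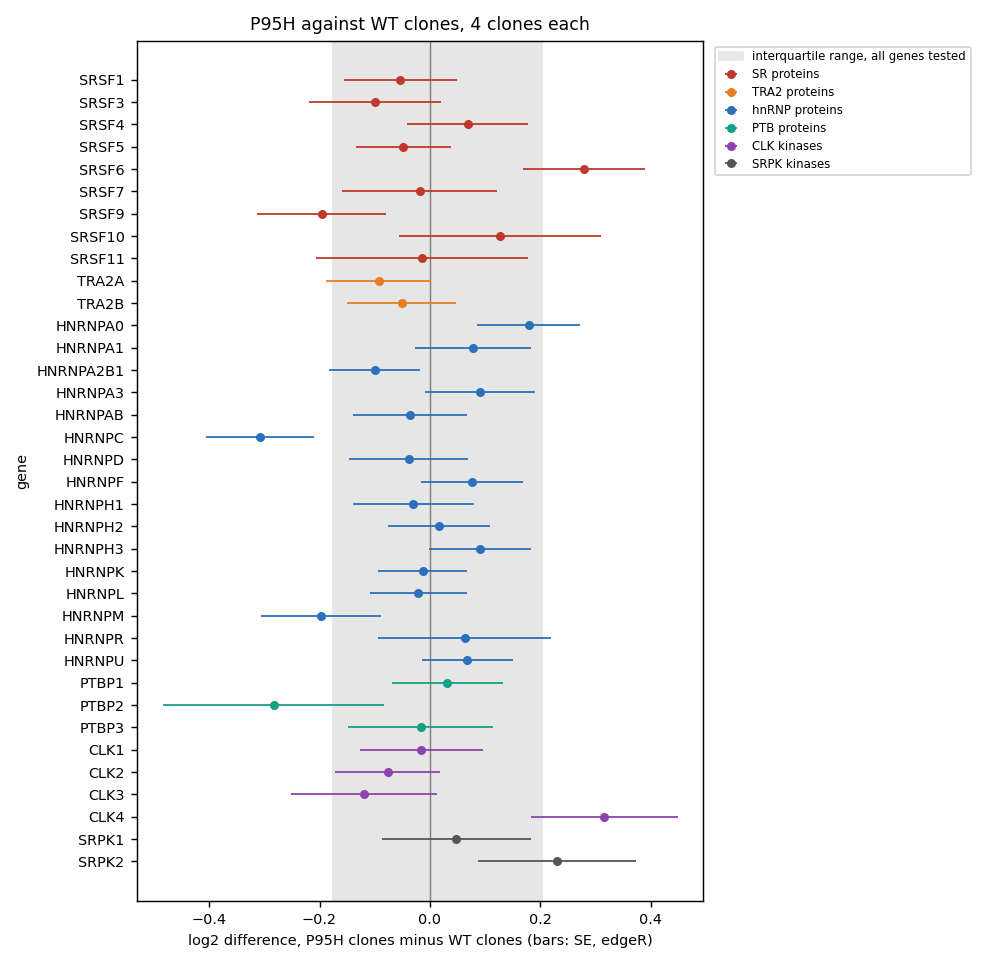
Log2 difference of P95H minus WT clones (horizontal axis, with the SE from edgeR, 4 clones each) for the 36 measured genes, coloured by family. The grey band is the interquartile range of all 18173 genes tested, and HNRNPC (-0.31), PTBP2 (-0.28), SRSF6 (0.28) and CLK4 (0.32) lie outside it, as do HNRNPM and SRSF9 on the low side and SRPK2 on the high side.

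In 3 of 36 members (8.33%) the clones of the groups did not overlap, against 8.57% of all genes: CLK4 was above all WT clones, and HNRNPC and HNRNPA2B1 were below them. By direction, 3.94% of genes lay above and 4.63% below. Without P15 the count was 9 of 36, against 13.5% of genes, with HNRNPA0, HNRNPU, SRPK2 and SRSF6 added above and CLK3 and HNRNPM below, and without P38 it was 5 of 36, against 14.6% of genes.

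Among the SR proteins, 3 of 9 measured members were higher and 6 lower in P95H clones, with a median log2 difference of -0.02. SRSF6, which binds exonic enhancers and promotes exon inclusion, had 253, 213, 263 and 289.8 CPM in P9, P15, P22 and P38, against 201, 214, 209 and 222 CPM in W19, W33, W36 and W42, and 210.0 CPM in the parental line. P9, P22 and P38 were above every WT clone, and P15 lay within them. The log2 difference was 0.28 (SE 0.11, edgeR adjusted p = 0.381) and stayed between 0.21 and 0.36 with any 1 clone left out.

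SRSF9, a short SR protein, had 138, 136, 145 and 151 CPM in P9, P15, P22 and P38, against 153, 203, 150.2 and 151 CPM in W19, W33, W36 and W42, and 174 CPM in the parental line. W33 lay far above the other WT clones, which sat within a few CPM of the highest P95H clone, P38. The log2 difference of -0.20 (SE 0.12, edgeR adjusted p = 0.530) was -0.09 without W33. GATC overlaps 46.2% of the exon length of SRSF9 on the other strand. As the strand setting of the counting is not given, reads there were treated as not separable. The other measured SR proteins differed between the groups by -0.10 (SRSF3) to 0.13 (SRSF10) on the log2 scale, and none reached an unadjusted p of 0.05. The value of SRSF10 rested on W33, its lowest library, and was -0.03 without it.

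TRA2A and TRA2B bind purine-rich exonic enhancers. TRA2A had 82.8, 84.6, 85.7 and 93.4 CPM in P9, P15, P22 and P38, against 90.7, 87.0, 93.5 and 100.4 CPM in W19, W33, W36 and W42, and 113 CPM in the parental line. The clone groups overlapped, and the parental library was above all clones. The log2 difference between P95H and WT clones was -0.09 (SE 0.10, edgeR adjusted p = 0.722), and that of TRA2B was -0.05.

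The 16 hnRNP genes split evenly, 8 higher and 8 lower in P95H clones (9 and 7 without W33), and 13 lay within 0.1 log2 of zero. HNRNPC, whose product binds uridine tracts in nascent transcripts and keeps cryptic exons out of messenger RNA, had 650.2, 618, 651 and 724 CPM in P9, P15, P22 and P38, against 792, 758, 854 and 886 CPM in W19, W33, W36 and W42, and 911 CPM in the parental line. The highest P95H clone was below the lowest WT clone, and all clones were below the parental library. The means were 661 ± 44.8 CPM in P95H clones and 823 ± 58.1 CPM in WT clones (SD, n = 4 each), a log2 difference of -0.31 (SE 0.10, edgeR adjusted p = 0.334). Leaving out any 1 clone gave -0.35 to -0.28, and the adjusted p was 0.104 in DESeq2 and 0.0999 in limma-voom.

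HNRNPA2B1 had 1910.0, 1714, 1787 and 1877 CPM in P9, P15, P22 and P38, against 1955, 1993, 1998 and 1913 CPM in W19, W33, W36 and W42, and 2149.7 CPM in the parental line. P9 and W42 differed by a few CPM only, so the groups barely separated. Its log2 difference of -0.10 (SE 0.08, edgeR adjusted p = 0.652) was smaller than that of HNRNPC.

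HNRNPA0, a small hnRNP protein related to HNRNPA1, had 192, 173, 179.7 and 181 CPM in P9, P15, P22 and P38, against 152, 176, 167 and 149.7 CPM in W19, W33, W36 and W42, and 182 CPM in the parental line. P15 was below W33 and the other P95H clones were above every WT clone, with a log2 difference of 0.18 (SE 0.09, edgeR adjusted p = 0.482). HNRNPM, which binds regions rich in guanosine and uridine, had 539.9, 567, 533 and 526 CPM in the same P95H clones, against 598, 753, 594 and 555 CPM in the WT clones, and 635 CPM in the parental line. Only P15 reached above the lowest WT clone. The log2 difference of HNRNPM was -0.20 (SE 0.11, edgeR adjusted p = 0.4999) and -0.10 without W33, the clone with the highest value.

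HNRNPH3, a member of the group that binds runs of guanosine, had 409.6, 369, 379 and 397 CPM in P9, P15, P22 and P38, against 368, 336, 379.6 and 385 CPM in W19, W33, W36 and W42, and 415 CPM in the parental line. HNRNPA3, a close relative of HNRNPA2B1, had 440.1, 434, 519 and 489 CPM in those P95H clones, against 423, 481, 421 and 453 CPM in the WT clones, and 469 CPM in the parental line. The groups overlapped in both genes, whose log2 differences were each 0.09 (edgeR adjusted p = 0.724 for HNRNPH3 and 0.746 for HNRNPA3). With any 1 clone left out they spanned 0.05 (without W33) to 0.11 for HNRNPH3 and 0.03 (without P22) to 0.13 for HNRNPA3. HNRNPK, a binder of cytidine-rich sequences, varied least of all members: 622 to 646 CPM in P95H clones and 628 to 655 CPM in WT clones.

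**Figure D2:**
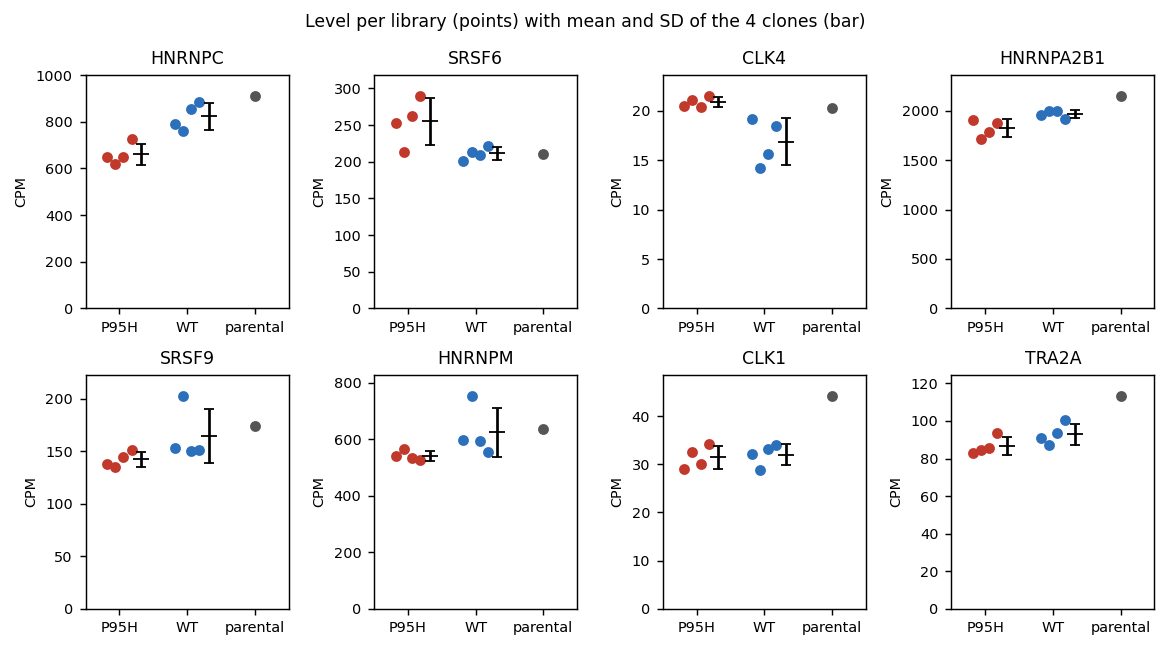
CPM in each library (points) of 8 named genes, with the mean and SD of the 4 clones of a group (bars beside the points) and axes that start at 0. HNRNPC and HNRNPA2B1 in P95H clones lie below the WT clones, CLK4 above them, and CLK1 and TRA2A stand highest in the parental line.

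Several hnRNP genes have processed pseudogenes so close in sequence that reads may be placed on either, and the rows of such copies held counts. The row of HNRNPA1, which represses exons by binding near them, held 120864 counts over the 9 libraries, against 426276 counts in rows named as its copies, of which 62 of 76 held any. Its own row thus carried 22.1% of the sum, and 20.2 to 24.3% in single libraries. Reads aligned more than once (5.06 to 6.06% per library) were counted in no row. Shares of a row and sums with copies therefore cover the counted reads only and are not totals. The row HNRNPA1L3 on chromosome 16 held 167713 counts and matched the HNRNPA1 coding sequence at 99.6% of 752 bases. HNRNPA1P7 on chromosome 18 held 150053 counts and HNRNPA1P10 on chromosome 19 held 63216. The 60 coding bases 103 to 162 of HNRNPA1 (chromosome 12, GENCODE 29, GRCh38) span an exon junction after base 132, and the copies carry the same stretch in 1 piece. They are printed to show how far a read could tell the rows apart. A capital marks a base that differs from HNRNPA1.
HNRNPA1: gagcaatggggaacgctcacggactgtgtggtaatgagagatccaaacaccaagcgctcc
HNRNPA1L3: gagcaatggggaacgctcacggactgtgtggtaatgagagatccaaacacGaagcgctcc
HNRNPA1P7: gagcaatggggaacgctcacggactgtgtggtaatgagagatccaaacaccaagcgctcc
HNRNPA1P10: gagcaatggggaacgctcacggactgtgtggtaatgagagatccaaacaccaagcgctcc

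HNRNPA1 itself had 462 ± 48.1 CPM in P95H clones and 440.3 ± 35.2 CPM in WT clones in its own row, and 2038 ± 163 and 2029 ± 118 CPM in the same groups with its copies added (SD, n = 4 each). The log2 difference was 0.08 (SE 0.11) for the row alone and 0.02 (SE 0.09) for the sum. For HNRNPC, the row HNRNPCP2 on chromosome 2 held 93400 counts, and the HNRNPC row carried 66.5% of its sum. The stretch below spans the exon junction after coding base 241 of HNRNPC (chromosome 14) and reads the same in both, so it is shown beside the difference reported above.
HNRNPC coding bases 212 to 271: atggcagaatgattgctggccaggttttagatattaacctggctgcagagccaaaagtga
HNRNPCP2, the same stretch: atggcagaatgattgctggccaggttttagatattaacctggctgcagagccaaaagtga

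With all its copies added, HNRNPC came to 989 ± 65.0 CPM in P95H clones and 1233 ± 101 CPM in WT clones (SD, n = 4 each), and the groups still did not overlap. The log2 difference of the sum was -0.31 (SE 0.10, edgeR adjusted p = 0.334). Other genes with a low share in their own row were HNRNPA3 (44.9%), HNRNPL (57.5%), HNRNPK (81.8%) and CLK2 (85.9%). No member passed the test in any of the 3 comparisons between groups with copies added. Of all 50-base words in the coding sequence, 83.2% occurred in another gene for HNRNPA1, 89.8% for HNRNPA3 and 53.5% for HNRNPC. In SRSF1 90.7% did, through an overlapping gene (ENSG00000266086) whose row held 0 counts. That gene covers 56.6% of the exon length of SRSF1 on the same strand. As the overlap mode is not given, its 0 counts do not show that the SRSF1 row kept all its reads.

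**Figure D3:**
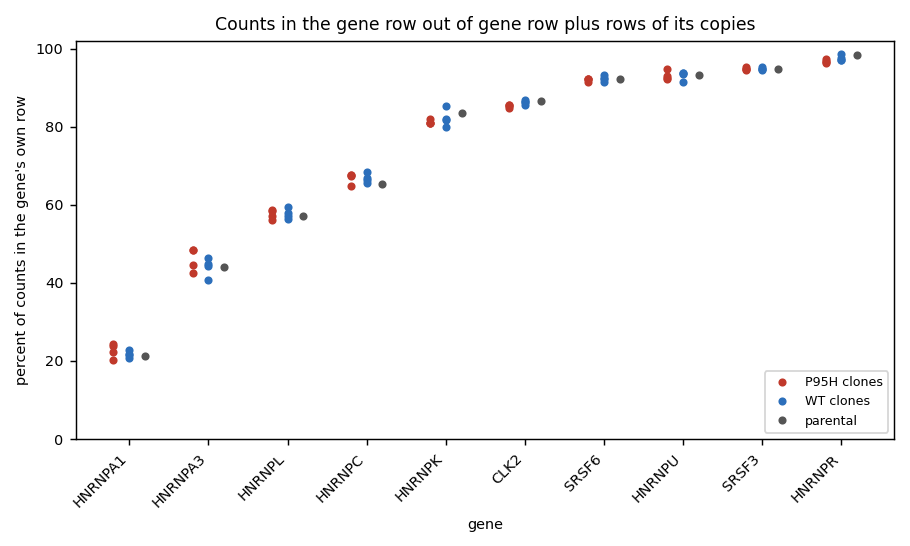
Percent of counts in the gene's own row, out of that row plus the rows of its copies (vertical axis), for the 10 genes whose copies held at least 1000 counts. Each point is a library, and the share runs from about 22.1% in HNRNPA1 to 97.2% in HNRNPR with little difference between P95H clones, WT clones and the parental line.

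PTBP2 had 17.6, 23.9, 25.3 and 29.3 CPM in P9, P15, P22 and P38, against 29.3, 20.8, 32.98 and 34.5 CPM in W19, W33, W36 and W42, and 29.4 CPM in the parental line. P9 was the lowest of all libraries and W33 the lowest WT clone. The log2 difference was -0.28 (SE 0.20, edgeR adjusted p = 0.595), or -0.42 without W33 and -0.17 without P9. PTBP1, a repressor of exons in most tissues, and PTBP3, its relative best known from blood cells, differed by 0.03 and -0.02 on the log2 scale.

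Of the CLK kinases, 1 was higher and 3 were lower in P95H clones. CLK4 had 20.5, 21.1, 20.4 and 21.5 CPM in P9, P15, P22 and P38, against 19.2, 14.2, 15.7 and 18.4 CPM in W19, W33, W36 and W42, and 20.2 CPM in the parental line. The P95H clones lay close together and close to the parental library, while the WT clones were lower and wider apart. Means were 20.9 ± 0.518 CPM in P95H clones and 16.9 ± 2.35 CPM in WT clones (SD, n = 4 each), with a log2 difference of 0.32 (SE 0.13, edgeR adjusted p = 0.406), or 0.24 without W33. CLK1, CLK2 and CLK3 differed by -0.02, -0.08 and -0.12.

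SRPK2 had 48.7, 40.8, 52.0 and 45.05 CPM in P9, P15, P22 and P38, against 44.5, 31.2, 39.8 and 44.4 CPM in W19, W33, W36 and W42, and 40.5 CPM in the parental line. P15 lay within the WT clones and W33 below all others. Its log2 difference was 0.23 (SE 0.14, edgeR adjusted p = 0.547) and 0.12 without W33. SRPK1, the more abundant SRPK kinase per kilobase, differed by 0.05 (SE 0.13).

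A further question is how the clones stand to the unedited line, which is 1 library and was assumed to vary like the clones in a 3-group fit. Both comparisons with it share that library, so they are given side by side and are not independent. Of the 36 members, 27 were lower in P95H clones than in the parental line, against 47.2% of all 20636 genes tested, and 31 were lower in WT clones, against 47.1%. The median log2 difference of the members was -0.12 for P95H clones and -0.10 for WT clones, against 0.03 and 0.02 over all genes and -0.03 and -0.0077 over genes of like level. No member passed an adjusted p of 0.05 in edgeR against the parental line, where 0.0% of genes did for P95H clones and 0.00485% (1 gene) for WT clones. None passed in DESeq2, which called 0.0253% and 0.0196% of genes for P95H and WT clones, or in limma-voom, which called 0.0291% and 0.145%. At an unadjusted p under 0.05, 3 members were lower in P95H clones (HNRNPC, CLK1 and TRA2A, beside 2.76% of genes) and 1 in WT clones (CLK1, beside 0.926% of genes).

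All 8 clones lay below the parental library in 13 of 36 members (36.1%), against 7.2% of all genes and 6.80% of genes of like level. All 8 lay above it in 0 members, against 6.86% of genes. Taken by group, the 4 P95H clones were all below the parental library in 18 members and all above it in 4, against 23.2% and 22.3% of genes, and the 4 WT clones were all below in 20 and all above in 0, against 15.5% and 14.6%. The 13 were SRSF1, SRSF3, SRSF5, TRA2A, TRA2B, HNRNPA2B1, HNRNPC, HNRNPH2, HNRNPH3, HNRNPK, HNRNPR, CLK1 and CLK2. SRSF3 was the closest, with 719.8 CPM in W33 and 720.0 CPM in the parental line, and the count was 12 with RLE or upper quartile scaling. Without W33 it was 16, against 16.5% of genes. With 1 parental library, clonal growth, editing and that library's own deviation cannot be told apart.

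CLK1, which phosphorylates SR proteins in the nucleus and autoregulates through intron retention, had the largest log2 difference from the parental line among the members, in both groups. It had 29.01, 32.7, 29.99 and 34.3 CPM in P9, P15, P22 and P38 and 32.1, 28.9, 33.2 and 33.9 CPM in W19, W33, W36 and W42, against 44.2 CPM in the parental line. Clone groups overlapped fully, and every clone was lower than the parental library. The log2 difference was -0.49 (SE 0.16, edgeR adjusted p = 0.856) for P95H clones and -0.46 (SE 0.16, adjusted p = 1) for WT clones. HNRNPC, the next in P95H clones, had -0.46 (SE 0.15) there and -0.15 for WT clones, and TRA2A, the next in WT clones, had -0.39 (SE 0.14) for P95H clones and -0.29 (SE 0.14) for WT clones. For HNRNPA2B1 the values were -0.24 for P95H clones and -0.13 for WT clones. CLK4 and HNRNPH3 were lower by 0.26 and 0.18 log2 in WT clones than in the parental line, while the P95H clones differed from it by 0.05 and -0.09.

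**Figure D4:**
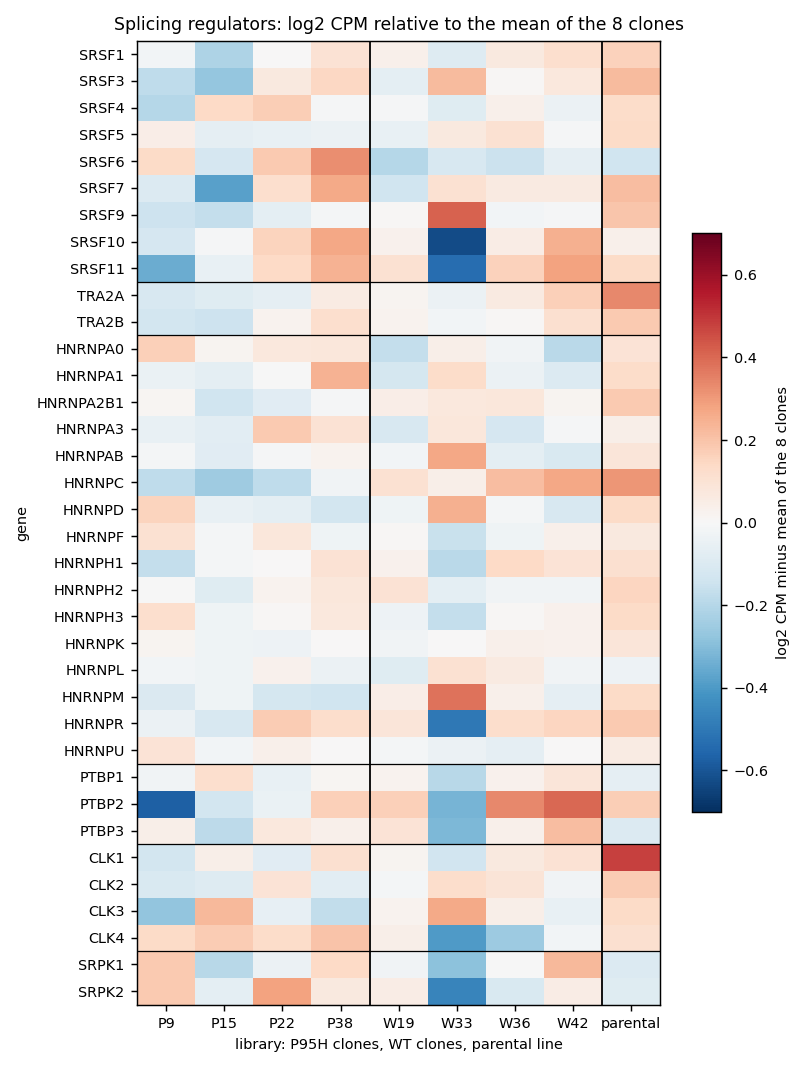
Log2 CPM of the 36 measured genes in each library relative to the mean of the 8 clones (colour, red higher and blue lower), with P95H clones left, WT clones in the middle and the parental line right, and lines between families. CLK1, TRA2A and HNRNPC are highest in the parental column, and W33 holds the lowest values of SRSF10, SRSF11 and HNRNPR.

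Members varied little between clones of a group. The SD of log2 CPM within groups had a median of 0.13 over the 36 members and 0.21 over 8245 genes of like level, and 31 of 36 members (86.1%) lay below the second value. Genes of like level span 18.9 to 1893 CPM and were not matched to members within that span. Whether the contrast follows from level was not tested. HNRNPK, by its own row, had the smallest at 0.03. PTBP2 and SRSF11 (each 0.32), SRSF10 (0.30) and HNRNPR (0.24) had the largest. W33 was the lowest or the highest WT clone in 31 of 36 members, as in 81.8% of all genes, and without it the median SD among WT clones was 0.06 for members and 0.09 for genes of like level.

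SRSF11, an SR-related protein, had 235, 288, 330.1 and 355 CPM in P9, P15, P22 and P38 and 322, 207, 335 and 363 CPM in W19, W33, W36 and W42, with 328 CPM in the parental line. SRSF10, an SR protein that represses splicing when dephosphorylated, had 228, 246, 275 and 299 CPM in those P95H clones and 253, 160.1, 257 and 295 CPM in the WT clones, with 254 CPM in the parental line. HNRNPR had 408, 388, 475 and 456 CPM in the P95H clones and 444, 296, 457 and 466 CPM in the WT clones, with 476 CPM in the parental line. W33 was the lowest of the 9 libraries in all 3 genes.

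W33 was then set against the other WT clones. It is 1 library, singled out for standing apart, and the spread in this fit comes from the other clones of both groups alone, so these adjusted p-values describe that library. It had 2 of 36 members (5.56%) past an adjusted p of 0.05, both lower, where 11.1% of genes passed and 6.34% were lower. At an unadjusted p under 0.05, 12 members were listed, against 30.2% of genes. HNRNPR was lower by 0.67 log2 (SE 0.15, edgeR adjusted p = 0.0295) and SRSF10 by 0.79 log2 (SE 0.18, adjusted p = 0.0325). Neither call was kept when W19, W36 or W42 was left out, with log2 differences of -0.64 to -0.61 for HNRNPR and -0.78 to -0.67 for SRSF10, and the number of genes passing was then 500 without W19 and 0 without W36 or W42. DESeq2 called 7 members, and 10.4% of genes with a test: HNRNPM, SRSF9 and HNRNPAB higher and SRSF11, PTBP3, HNRNPR and SRSF10 lower in W33. In each of the other 7 clones, set against the rest of its group, edgeR called 0 members, where it called 0.0% of genes in P9, P38, W19 and W36, 0.00492% in P15, 0.0197% in W42 and 0.452% in P22. At an unadjusted p under 0.05, SRSF7 (lower) and CLK3 (higher) were listed in P15 (7.78% of genes). No member was listed in P9 (3.82% of genes), P22 (8.53%), P38 (2.4%), W19 (0.56%), W36 (0.629%) or W42 (1.53%).

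The 4 most variable members lie on chromosome 1, which holds 7 of the 36, and their neighbours were examined there for that reason, after their values had been seen. In the order of the 1217 genes of chromosome 1 with at least 5 CPM, HNRNPR, SRSF10, SRSF4, SRSF11 and PTBP2 come before CLK2 and HNRNPU. In P9, log2 CPM relative to the other P95H clones was -0.10 for HNRNPR, -0.26 for SRSF10, -0.30 for SRSF4, -0.46 for SRSF11 and -0.57 for PTBP2. The 40 genes around each had medians of -0.54 to -0.38, and 37 or 38 of 40 were below zero. CLK2 and HNRNPU differed by -0.08 and 0.09 in P9, and their neighbours had medians of -0.04 and 0.0049.

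In W33, relative to the other WT clones, HNRNPR differed by -0.62, SRSF10 by -0.74, SRSF11 by -0.71 and PTBP2 by -0.63. Medians of their neighbours were -0.30, -0.27, -0.76 and -0.54 in that order. SRSF4, which lies between SRSF10 and SRSF11 in the order, differed by -0.08, with a neighbour median of -0.13. HNRNPR and SRSF10 were thus below the median of the genes beside them in W33, whereas in P9 both were nearer to zero than that median. Why these stretches were low was not tested. By whole chromosomes, the median in P9 was -0.18 on chromosome 1, its largest shift. In W33 it was -0.13 on chromosome 1, and other chromosomes were shifted further, such as 19 (0.43) and 13 (-0.24). Neighbours of members on other chromosomes were not examined.

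**Figure D5:**
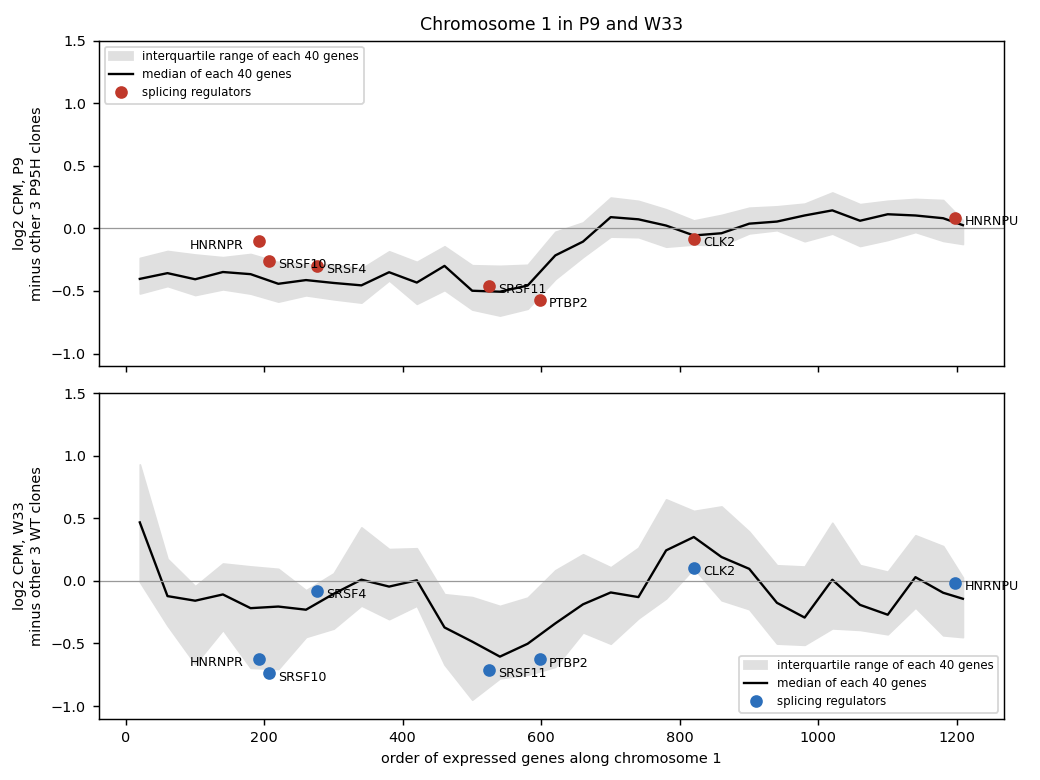
Log2 CPM of P9 minus the other 3 P95H clones (above) and of W33 minus the other 3 WT clones (below), over the order of expressed genes on chromosome 1. The black line is the median of each 40 genes, the grey band their interquartile range, and the points are the 7 splicing regulators there; in P9 the line is below zero over the first part, where 5 of them lie.

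Related regulators were taken from a list of 75 other RNA-binding proteins and kinases, of which 71 were tested. None passed an adjusted p of 0.05 in edgeR between P95H and WT clones, 3 were higher and 2 lower at an unadjusted p under 0.05 (7.04% of the 71, against 11.7% of all genes), and 34 were higher and 37 lower by sign (47.9% higher, against 52.1% of all genes). CELF2, a splicing factor of the CUG-binding family, averaged 18.3 ± 11.96 CPM in P95H clones and 7.45 ± 3.02 CPM in WT clones (log2 1.32, SE 0.46, adjusted p = 0.348), and the groups overlapped. DYRK1A, a kinase that also phosphorylates splicing factors, had 74.9 to 83.8 CPM in P95H clones and 57.5 to 71.2 CPM in WT clones (log2 0.28). SAFB2, a nuclear scaffold protein, had 87.7 to 99.96 CPM in P95H clones and 103 to 129 CPM in WT clones (log2 -0.27). LUC7L2, a partner of the U1 particle, had 57.0 to 63.0 CPM in P95H clones and 67.6 to 77.4 CPM in WT clones (log2 -0.23). CIRBP, a cold-inducible RNA-binding protein, and CDK11A, a kinase tied to transcription and splicing, differed by 0.29 and 0.78 with overlapping groups, the second at about 1 CPM. Another gene on the same strand overlaps 52.1% of the exon length of CDK11A and 21.8% of that of LUC7L2. The part of these overlaps in their counts was not tested.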

How the data were processed

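The authors deposited raw read counts per Ensembl gene, 1 list per library. Tools named in the submitters' processing notes are HTSeq 0.6.1p1, TopHat2 2.0.4 and bcl2fastq, and the build is GRCh37. The file labels name Ensembl release 75. No source used here gives the strand setting or overlap mode, so reads of genes overlapping on opposite strands were treated as not separable. The 5 summary values per list were left out: reads in no gene (47.6 to 49.1%), ambiguous reads (2.23 to 2.55%) and reads aligned more than once (5.06 to 6.06%). GENCODE 29 (GRCh38) supplied symbols for 52526 of 63677 IDs, and chromosomes. As the builds differ, gene coordinates are not given and only gene order was used.

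Counts were analysed with edgeR 4.0.16 in R 4.3.3 (filterByExpr, TMM, robust quasi-likelihood F test, Benjamini-Hochberg adjustment over all genes tested, threshold 0.05). Levels are TMM-scaled CPM, and log2 CPM used a prior count of 2. Alternatives were DESeq2 1.42.0, limma-voom with quality weights (limma 3.58.1), RLE and upper quartile scaling, no filter, a stricter filter (1 CPM in 4 libraries), a 3-group fit and leaving out clones. Adding copy rows and ordering levels by the longest coding transcript were chosen after seeing the data. Genes of like level are those whose mean lies between the lowest and highest member. Copies were taken by name from pseudogene and HNRNPA1-like or HNRNPC-like symbols. The fits were tried on simulated counts with changes of at least 2-fold, which are larger than the differences of the members. That trial does not cover differences as small as those of the members.

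The members, the lists and the tests were chosen with earlier results of these data known. Values in every library are given for the 12 members with the smallest p between P95H and WT clones, any member past the threshold, 4 per comparison with the parental line and the 4 with the largest spread, and up to 6 related regulators are named.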

Additional observations from a re-analysis of the deposited data

Results flagged for a closer look

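In each group of 4 clones, the gap between the highest or lowest clone and its nearest neighbour was set against the range of the group (Dixon's test at 95%). Of 74 groups checked, 5 stood out, and chance gives about 1 in 20. Among P95H clones, PTBP3 stood at 177 CPM in P15 (206 to 212 CPM in the other P95H clones) and CLK2 at 68.2 CPM in P22 (59.3 to 60.5 CPM). Among WT clones W33 was the odd one each time: SRSF9 stood at 203 CPM in W33 (150.2 to 153 CPM in the other WT clones), HNRNPR at 296 CPM (444 to 466 CPM) and SRSF2 at 448 CPM (499 to 507 CPM).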

How the results depend on the processing

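No paired analysis was possible because the clone numbers of the P95H and WT clones are not shared. None of the 36 members, and none of the related regulators tested, passed the threshold between P95H and WT clones, or between either and the parental line, under any alternative run. Of 319 values of named genes under the alternatives, 310 kept their direction and side of the threshold, 6 (HNRNPR and SRSF10 in W33) lost the threshold when a WT clone was left out, and 3 changed sign, all of SRSF2: -0.0072 without W33, -0.038 without P38 and -0.030 without W33 and P22 together, with -0.038 to 0.081 when any 1 clone was left out. Genes passing between P95H and WT clones numbered 270 in DESeq2, 59 in limma-voom, 2 with no filter, 5 without W33 and P22, and 0 to 1 with any 1 clone left out, against 0. Between P95H clones and the parental line they numbered 9, 6 and 5 in DESeq2, limma-voom and with no filter, and 0 to 2 with a clone left out, against 0. Between WT clones and the parental line they numbered 7, 30 and 5 in the same order, 0 with the stricter filter and 0 to 1 with a clone left out, against 1. For W33, genes passing numbered 3550 in DESeq2 and 0 to 500 with a clone left out, against 2258, and members 7 in DESeq2 and 0 to 0 with a clone left out, against 2. For the other single clones DESeq2 gave 4 (W36), 8 (W42), 31 (P9), 260 (P15), 491 (P22) and 17 (P38) genes, against 0, 4, 0, 1, 92 and 0 in edgeR, which gave 2 to 3 (W42) and 32 to 36 (P22) with a clone left out. The cause of these changes was not tested. Scaling moved the median of all genes by under 0.1 log2.

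Limits of these data are the single parental library, clones whose number of edited alleles is not stated, rows shared with near-identical copies, and counts per gene that carry neither isoform nor protein. Differences of the size of the SD between clones of a group (a median of 0.13 log2 for members) could not be told from that spread. Larger ones did not pass either, among them HNRNPC at -0.31 (edgeR adjusted p = 0.334) and CLK4 at 0.32 (edgeR adjusted p = 0.406). The lack of calls therefore does not show that differences of that size are absent.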
